A study of Homo sapiens with 6 samples.

Results

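The dual-specificity phosphatases DUSP1, DUSP2, DUSP4, DUSP5, DUSP6 and DUSP10 and the Sprouty family proteins SPRY1, SPRY2, SPRY4 and SPRED2 are inhibitors of mitogen-activated protein kinase signalling, and the chromatin around these 10 genes is described here. A site of the authors' count table was taken as belonging to a gene when it overlapped the gene body extended by 50000 bases on either side. This gave 201 of the 181135 sites in the table. Of these, 16 lay within 1000 bases of a start of their gene and are called promoter sites, 182 lay over 1000 bases from every protein-coding start and are called distal sites, and 3 sites in the DUSP2 window lay at starts of neighbouring genes. All 201 passed the filter on low counts. The site number per gene ran from 8 for SPRY2 to 31 for SPRED2. Distances given below run from the outermost start of a gene to the centre of a site, and the strongest distal site is the one with the highest mean CPM. A window is a rule of distance, and 25 of the 182 distal sites were nearer to the start of another gene.

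The assay was ATAC-seq, which reads out where a transposase can cut open chromatin, in K562, an established wild-type human leukaemia line that can take on features of megakaryocytes. Phorbol 12-myristate 13-acetate (PMA), a diacylglycerol mimic and activator of protein kinase C, was given at 25 nM for 0, 6 or 72 h, with 2 libraries per time point, and the 0 h libraries are the untreated controls. The label protocols record a change of medium after 24 and 48 h, so the 72 h cells differ from the others in that too. The libraries are bulk samples, so a larger share of cells with a site open and a wider opening in each cell cannot be told apart.

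The genes work as a negative feedback on the RAS to ERK cascade. ERK, the kinase at the end of the cascade, is switched off when a phosphatase of the DUSP family removes phosphate from its activation loop, and several of these phosphatases are themselves transcribed in response to ERK. Sprouty and SPRED proteins act upstream, where they restrain activation of RAS and RAF downstream of receptors and other inputs. Protein kinase C feeds into the same cascade, partly through the RASGRP exchange factors, and sustained ERK signalling is known to accompany the PMA response of K562 cells.

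The 250 bases before the RefSeq start (GRCh38.p14) are printed for 5 genes, 5' to 3' on the strand of the gene, because the contrasts described below turn on them: DUSP1 (chr5:172771196-172771445), DUSP10 (chr1:221742090-221742339), DUSP6 (chr12:89352502-89352751), SPRY2 (chr13:80341127-80341376) and, for SPRED2, the outermost start (chr2:65432600-65432849) and a start inside the gene (chr2:65366779-65367028). All 5 genes lie on the minus strand. Capitals mark matches to the motifs searched on both strands. These were TGANTCA for AP-1, TGACGTCA for the cyclic AMP response element (CRE), CCGGAAG for factors of the ETS family, AGATAA for the GATA family, GCGNGGGCG for EGR proteins and TGTGGT for RUNX proteins.
DUSP1: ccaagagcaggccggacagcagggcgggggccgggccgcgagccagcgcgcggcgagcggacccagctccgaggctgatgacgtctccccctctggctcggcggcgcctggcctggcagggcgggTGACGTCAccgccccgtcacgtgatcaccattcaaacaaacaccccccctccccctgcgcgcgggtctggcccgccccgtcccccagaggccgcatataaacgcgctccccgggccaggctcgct
DUSP10: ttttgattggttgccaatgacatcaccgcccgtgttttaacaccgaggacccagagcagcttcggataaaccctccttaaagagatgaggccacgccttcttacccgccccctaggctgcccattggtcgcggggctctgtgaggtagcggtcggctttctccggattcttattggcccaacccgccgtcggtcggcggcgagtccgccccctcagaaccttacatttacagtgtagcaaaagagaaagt
DUSP6: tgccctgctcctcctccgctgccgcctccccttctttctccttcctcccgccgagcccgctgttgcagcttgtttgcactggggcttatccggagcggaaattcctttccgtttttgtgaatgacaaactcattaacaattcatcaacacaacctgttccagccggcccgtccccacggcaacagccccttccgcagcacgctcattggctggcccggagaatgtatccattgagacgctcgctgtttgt
SPRY2: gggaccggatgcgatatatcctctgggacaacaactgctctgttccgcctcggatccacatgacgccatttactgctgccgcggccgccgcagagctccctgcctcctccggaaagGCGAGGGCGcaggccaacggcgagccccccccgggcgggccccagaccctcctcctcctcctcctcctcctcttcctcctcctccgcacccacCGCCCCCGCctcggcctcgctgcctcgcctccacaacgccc
SPRED2, outer start: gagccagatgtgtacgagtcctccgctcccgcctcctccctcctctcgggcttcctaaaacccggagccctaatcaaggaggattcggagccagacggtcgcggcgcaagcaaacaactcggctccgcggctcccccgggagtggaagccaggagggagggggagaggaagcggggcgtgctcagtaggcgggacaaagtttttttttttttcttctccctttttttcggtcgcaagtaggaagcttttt
SPRED2, inner start: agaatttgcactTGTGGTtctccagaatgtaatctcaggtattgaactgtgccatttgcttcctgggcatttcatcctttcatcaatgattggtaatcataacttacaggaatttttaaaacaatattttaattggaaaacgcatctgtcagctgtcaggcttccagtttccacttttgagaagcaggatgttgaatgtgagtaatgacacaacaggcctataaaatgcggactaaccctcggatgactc
DUSP1 holds a full CRE at −125 to −118 from its start, a motif found in 1.65% of the 35116 promoters of the RefSeq table. SPRY2 holds EGR matches at −134 to −126 and −41 to −33, and 8.41% of all promoters hold at least 1. Among the genes not printed, DUSP2, SPRY1 and SPRY4 also hold EGR matches, and SPRY1 holds an ETS match. The inner SPRED2 promoter holds a RUNX match at −238 to −233, as do 11.0% of all promoters. DUSP10, DUSP6 and the outer SPRED2 promoter hold no match to the 6 motifs in this window. A match describes the letters and is no evidence of binding.

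Total counts over the table were 17669446 and 24470037 untreated, 12258890 and 33634403 after 6 h, and 30934990 and 35548737 after 72 h, so the 6 h libraries differed most in depth and the 72 h libraries were both deep. The authors' peak lists held 61873 and 69152 peaks untreated, 65336 and 93015 after 6 h, and 138914 and 142305 after 72 h, and the part of depth in the results was not tested. Of the 9 erythroid and megakaryocytic marker genes checked, 8 had a promoter site with peaks in both untreated libraries, and KLF1 had no promoter site. Among markers of other cell types, PAX5 and ALB had no promoter site, MS4A1 and MYOD1 were under 1 CPM, and CD3E and APOA1 had peaks. Values below are counts relative to library size (CPM), with library sizes scaled by TMM factors, log2 fold changes are from edgeR's quasi-likelihood fit to all 6 libraries, and a site is called at a Benjamini-Hochberg adjusted p under 0.05 over 177759 sites. The labels do not say that the 2 libraries of a time point came from separate cultures, so the p-values measure the spread between these libraries only.

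The choice of scaling bears on every 72 h value. With TMM, the middle value of the log2 fold changes of all tested sites was 0.05 at 6 h against 0 h, 0.29 at 72 h against 0 h and 0.03 at 72 h against 6 h. At 72 h against 0 h that median was 0.11 with RLE factors, 0.79 with total counts, −0.04 with loess offsets that vary with site strength, and 1.26 with TMM factors taken only from sites with a peak in every library (shared-site factors). A fold change at 72 h is therefore relative to these medians, and counts per gene are given with TMM. At 6 h against 0 h, none of the 94 distal and 10 promoter sites called around the 10 genes turned in direction under these 4 other scalings, though up to 15 of the distal and 3 of the promoter calls were lost. At 72 h against 0 h, 12 of the 118 distal sites called turned with shared-site factors, 2 with loess offsets, 1 with total counts and none with RLE factors. Of the 12 promoter sites called there, 4 turned with loess offsets and 2 with shared-site factors.

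Promoter and distal sites of the 10 genes were counted apart. At 6 h, 74 (40.7%) of the 182 distal sites were higher and 20 (11%) lower. Of all distal sites in the genome, 25.1% were higher and 14.3% lower. Of the 16 promoter sites, 6 (37.5%) were higher and 4 (25%) lower at 6 h, where 8.24% and 38.2% of all promoter sites were. The median log2 fold change at 6 h was 0.33 over the distal sites and −0.14 over the promoter sites, against 0.16 and −0.38 over all distal and all promoter sites. Without the more deeply sequenced 6 h library (replicate 2), 46 distal sites were called higher in place of 74. Only 3 promoter sites in place of 6 were called higher without 0 h replicate 1, without either 72 h library, with RLE factors or with DESeq2.

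At 72 h against 0 h, 83 distal sites (45.6%) were higher and 35 (19.2%) lower, beside 41.5% and 24.3% of all distal sites. Of the promoter sites, 3 (18.75%) were higher and 9 (56.25%) lower, beside 9.7% and 73% of all promoter sites. With TMM, the larger share of lower sites among promoters than among distal sites was thus also seen genome-wide. The median log2 fold change was 0.72 over distal and −0.83 over promoter sites, against 0.51 and −1.21 genome-wide. The promoter split turned to 6 higher and 2 lower with shared-site factors, beside 20.9% and 36.6% of all promoter sites. The distal split ran from 71 higher and 45 lower with loess offsets to 133 and 8 with shared-site factors. Of all distal sites, 31.9% were higher and 31.5% lower with loess offsets, and 62.05% and 8.14% with shared-site factors. Between 6 h and 72 h, 38 distal sites were higher and 37 lower, beside 24% and 15.9% of all distal sites. That split was 55 and 19 with total counts and 81 and 6 with shared-site factors, and without 72 h replicate 2 only 23 were higher and 22 lower. Without 72 h replicate 1, 24 were lower. Over the same interval no promoter site was higher and 11 (68.75%) were lower, beside 5.02% and 65.7% of all promoter sites. With loess offsets these promoter counts were 1 and 3, beside 6.01% and 23.7% of all promoter sites. With shared-site factors they were 0 and 4, beside 13.82% and 22.85%. For the distal split over this interval, the shares of all distal sites were 34.8% higher and 7.47% lower with total counts. They were 46.65% and 3.29% with shared-site factors. The promoter class also took in a site at the 3' end of DUSP5, since both ends of that gene were used, and without it, an alternative chosen after seeing the data, 5 promoter sites were higher at 6 h and 2 at 72 h.

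Sorted by course with TMM scaling, 33 distal sites were higher at 6 h and stayed so with no call between 6 and 72 h, 14 were higher at 6 h and rose further, 24 were higher at 6 h and then fell, and 12 rose only after 6 h. These are to be read beside 13.1%, 6.03%, 4.75% and 13.8% of all distal sites in the same classes. In the lower direction the same classes held 10, 5, 4 and 7 sites, beside 7.99%, 3.31%, 2.06% and 6.5%. The classes moved with the scaling. The class that was higher and then fell held 21 sites with RLE factors, 13 with total counts, 12 with loess offsets and 4 with shared-site factors. The shares of all distal sites were 4.46%, 2.55%, 3.79% and 1.27% in the same order. Those that rose further numbered 32 and those that rose only after 6 h 39 with shared-site factors, beside 16.3% and 24.5%. Without 6 h replicate 2, 13 sites were higher and then fell, and without either 72 h library 14. The 14 that rose further became 4 without 6 h replicate 2 or 72 h replicate 2, 6 without 72 h replicate 1, and 8 without 6 h replicate 1 or 0 h replicate 2, while the 33 that stayed higher became 21 without 0 h replicate 2. With TMM, a further 41 had no call in any contrast and 32 had other combinations, such as a call only at 72 h against 0 h. Peaks were called in both 72 h libraries but in no 0 h library at 60 of the 182 distal sites, and in both 0 h libraries but in no 72 h library at 4, while the 72 h libraries also hold the larger peak lists. The same shares over all distal sites are not given here, so these counts are no result about the 10 genes.

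**Figure D1:**
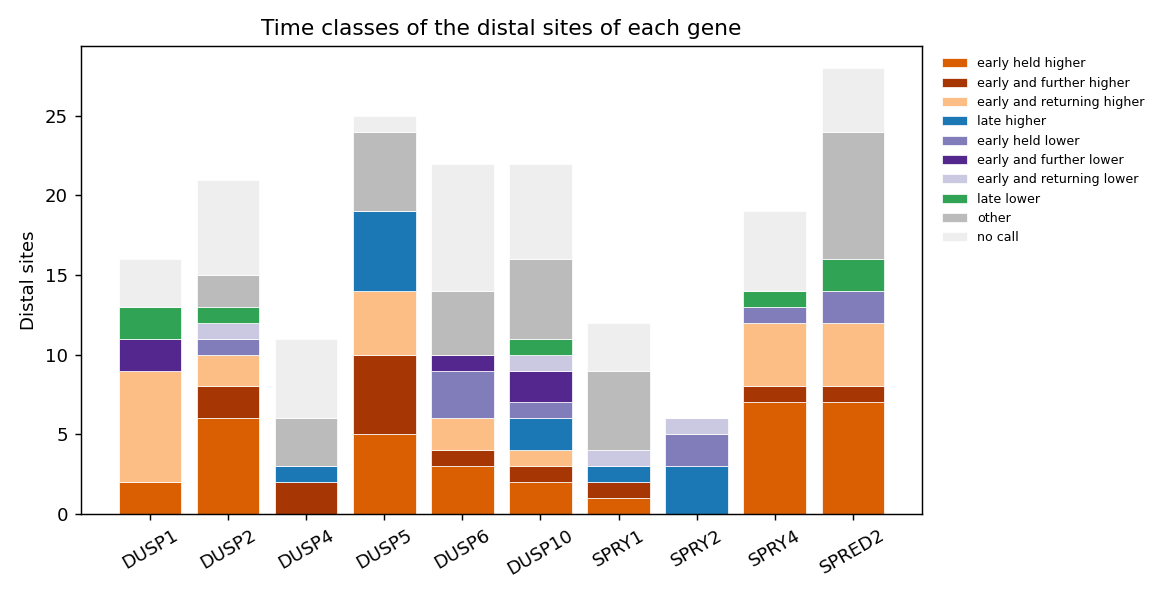
Number of distal sites of each gene (vertical axis) in each course over time, from the 3 contrasts between time points with TMM scaling. DUSP1 has 7 of its 16 distal sites in the class higher at 6 h and then lower, DUSP5 has 5 of 25 that rose further after 6 h and 5 that rose only then, and SPRY2 has none that was higher at 6 h.

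DUSP1, a nuclear phosphatase of ERK, p38 and JNK encoded by an immediate-early gene, had an early distal gain that partly receded with TMM scaling. Its promoter sites had no call at 6 h. The site over the DUSP1 start (chr5:172770380-172771661) read 55.2 and 68.1 CPM untreated, 55.9 and 54.4 after 6 h, and 23.8 and 29 after 72 h. The 0 h and 6 h libraries overlapped and the 72 h libraries lay below both. The log2 fold change was −0.16 (SE 0.15, adjusted p = 0.41) at 6 h and −1.23 (SE 0.15, adjusted p = 4.3e-07) at 72 h, and the latter turned to 0.14 with loess offsets and was not called with shared-site factors (−0.26, adjusted p = 0.11). A second site 1.31 kb upstream of the start had log2 fold changes of −0.14 and −1.17, the latter not called with shared-site factors (−0.20, adjusted p = 0.26). Of the 16 distal DUSP1 sites, 9 were higher and 2 lower at 6 h, beside 25.1% and 14.3% of all distal sites. Of those 9, 7 then fell between 6 and 72 h, by 0.71 to 1.15 on the log2 scale, and 4 of the 7 were still called above 0 h. Of these 7 decreases, 5 were called with loess offsets, 3 with total counts and 1 with shared-site factors.

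The largest distal change of DUSP1 was 49.2 kb upstream (chr5:172819923-172820921), where CPM went from 3.31 and 2.39 to 25 and 27.1 after 6 h and 18.7 and 21 after 72 h. All treated libraries lay well above the untreated ones, and the 72 h libraries below the 6 h ones. This gave log2 fold changes of 3.21 (SE 0.22, adjusted p = 3.9e-10) and 2.82 (SE 0.21, adjusted p = 8.3e-10), and the difference between 6 and 72 h was not called (−0.39, adjusted p = 0.082). By level, the leading distal site was another, 18 kb upstream. It read 43.9 and 38.4 CPM untreated, 27.9 and 27.8 after 6 h, and 13.4 and 15.9 after 72 h. Here the groups were separate and each later one lower, with log2 fold changes of −0.56 (adjusted p = 0.0071) and −1.49 (adjusted p = 5.8e-08). The 6 h decrease was not called with shared-site factors (−0.27, adjusted p = 0.18).

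DUSP2, a nuclear phosphatase induced in activated blood cells, had a promoter site that rose and stayed higher. That site, 1.35 kb upstream of the start (chr2:96146281-96147299), read 5.39 and 6.41 CPM untreated, 11.2 and 12.7 after 6 h, and 8.23 and 10.4 after 72 h. Both treated groups lay above the untreated libraries, and the 72 h libraries below the 6 h ones. The log2 fold change was 1.02 (SE 0.23, adjusted p = 0.001) at 6 h and 0.65 (SE 0.22, adjusted p = 0.013) at 72 h. The 72 h call was lost without 0 h replicate 1 (0.53, adjusted p = 0.074), without 72 h replicate 2 (0.47, adjusted p = 0.18) and with RLE factors (0.47, adjusted p = 0.071).

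Distal DUSP2 sites included the largest loss in any of the windows. It lies downstream, 50.1 kb from the start (chr2:96095003-96095630), and fell from 8.97 and 4.73 CPM at 0 h to 1.11 and 0.633 after 6 h and 0.544 and 0.354 after 72 h. The treated libraries were all far below the untreated ones, which themselves differed by almost as much as their lower value. Its log2 fold changes stood at −3.08 (SE 0.41, adjusted p = 3.1e-06) and −3.91 (SE 0.40, adjusted p = 2.7e-08). In the other direction, a site 13.8 kb downstream of the start rose from 0.975 and 0.622 CPM to 9.04 and 7.18 after 6 h and 4.37 and 4.51 after 72 h. Its log2 fold changes were 3.36 and 2.51, with a called decrease of 0.85 between 6 and 72 h. That decrease was not called without either 72 h library or without 6 h replicate 1, nor with total counts or shared-site factors. The strongest distal DUSP2 site, 12.4 kb upstream, rose by 0.57 at 6 h (adjusted p = 0.03), a call lost without 0 h replicate 1 (0.24), 6 h replicate 2 (0.32) or either 72 h library. The 3 sites at starts of neighbouring genes in this window had no call at 6 h, and with TMM scaling 1 was higher and 2 were lower at 72 h.

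DUSP4, a nuclear phosphatase of ERK and JNK, had a promoter site with no call at any time with TMM scaling. It read 14 and 9.18 CPM untreated, 12.3 and 8.92 after 6 h, and 10.1 and 8.52 after 72 h. The 3 groups overlapped, with log2 fold changes of −0.14 (SE 0.23, adjusted p = 0.66) and −0.31 (SE 0.23, adjusted p = 0.24). The 72 h value turned to 0.66 and was called with shared-site factors (adjusted p = 0.016), and it was called as a decrease without 0 h replicate 2 (−0.59, adjusted p = 0.04). A distal site 22.9 kb upstream rose in steps, from 2.6 and 3.78 CPM to 13.4 and 17.4 after 6 h and 22.3 and 22.9 after 72 h. Its groups did not overlap, with log2 fold changes of 2.26 (SE 0.23, adjusted p = 8.1e-08) and 2.80 (SE 0.23, adjusted p = 1.5e-09). The further rise of 0.54 after 6 h was called (adjusted p = 0.03) but not without either 72 h library or 6 h replicate 1. The strongest distal DUSP4 site, 35.5 kb downstream of the start, stayed between 13 and 17.1 CPM in all 6 libraries, and its 72 h value of −0.14 turned to 0.83 with shared-site factors (adjusted p = 0.00041).

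DUSP5, a nuclear phosphatase that acts on ERK and also anchors it in the nucleus, had the largest gains of the 10 genes. Of its 25 distal sites, 14 were higher and none lower at 6 h, and 21 were higher and 3 lower at 72 h. The shares of all distal sites were 25.1% and 14.3% at 6 h and 41.5% and 24.3% at 72 h. Between 24 and 39 kb downstream of the start, all 6 sites were higher at both times, by 1.07 to 5.59 at 6 h and 2.14 to 5.07 at 72 h on the log2 scale. The site 28.2 kb downstream (chr10:110525677-110526441) read 0.585 and 0.287 CPM untreated, 22.6 and 18.1 after 6 h, and 12 and 16.4 after 72 h. Untreated libraries held 9 and 6 reads there, and all treated libraries were far above them. In log2 terms the change came to 5.59 (SE 0.33, adjusted p = 8.1e-11) and 5.07 (SE 0.33, adjusted p = 1.7e-10), with no called difference between 6 and 72 h (−0.51, adjusted p = 0.054).

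The strongest distal DUSP5 site, 38.4 kb downstream (chr10:110535807-110536863), read 3.9 and 3.11 CPM untreated, 40.5 and 41.7 after 6 h, and 17.2 and 19.4 after 72 h. Its peak at 6 h was followed by a called decrease of 1.17 (SE 0.17, adjusted p = 1.2e-05), with the 72 h libraries still above the untreated ones. The site at the 3' end of the gene (chr10:110511915-110513343) took the same course, from 5.59 and 6.31 CPM to 44.9 and 48.5 and then 19.2 and 25.9. Its log2 fold changes were 2.97 (SE 0.19) and 1.92 (SE 0.19), and its later decrease of 1.05 was not called with loess offsets (−0.30, adjusted p = 0.13). At the other end of the window, 37.6 to 43.3 kb upstream, 3 sites were highest at 72 h, with log2 fold changes of 2.53 to 3.66 against 0 h.

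At the DUSP5 start itself (chr10:110497398-110498342) CPM was 28.6 and 27.4 untreated, 38.9 and 36.1 after 6 h, and 17.1 and 17.3 after 72 h. The 3 groups did not overlap, with 6 h the highest and 72 h the lowest. The log2 fold change was 0.42 (SE 0.15, adjusted p = 0.033) at 6 h and −0.70 (SE 0.15, adjusted p = 0.00037) at 72 h. The 6 h call did not hold when any 1 of the 6 libraries was left out (0.36 to 0.42, adjusted p of 0.0955 to 0.145) or with RLE factors (0.27). The 72 h value turned to 0.24 with loess offsets and 0.26 with shared-site factors. A site 1.53 kb upstream of the start, just outside the promoter class, rose by 2.22 at 6 h and by 1.05 at 72 h.

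**Figure D2:**
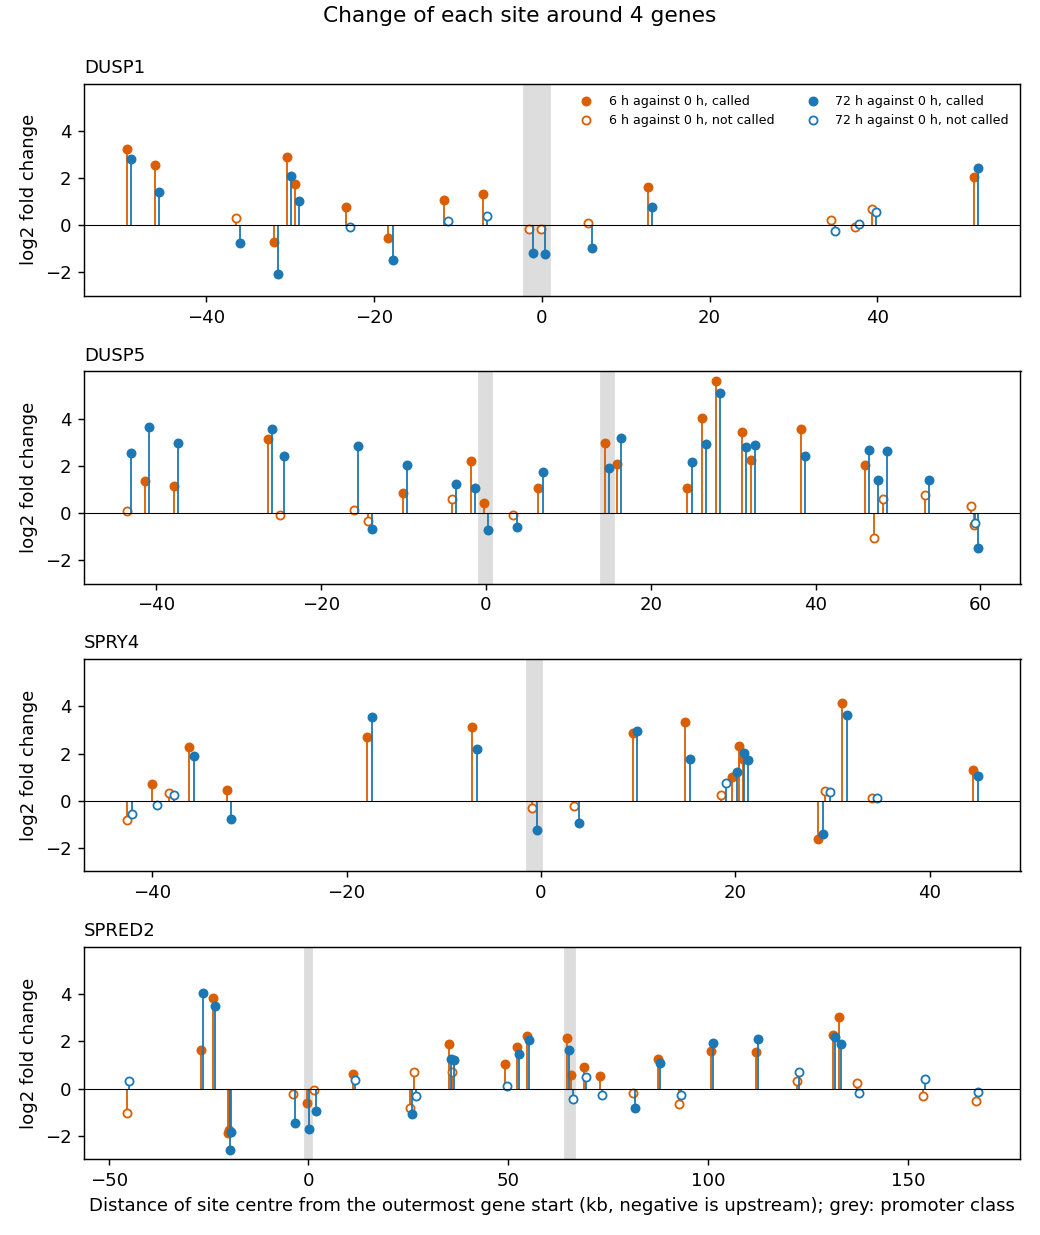
Log2 fold change (vertical axis) of each site around DUSP1, DUSP5, SPRY4 and SPRED2 against the distance of its centre from the outermost gene start in kb (horizontal axis, negative is upstream), at 6 h in orange and 72 h in blue. Filled points are called at an adjusted p under 0.05 and grey bands mark promoter sites. The promoter sites at the outermost starts lie near or below 0 at 72 h with TMM scaling (with loess offsets those of DUSP1, DUSP5 and SPRY4 lie above 0), while distal sites reach 5.59 at DUSP5 and 4.14 at SPRY4.

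DUSP6, the cytoplasmic phosphatase specific to ERK and a widely used readout of ERK activity, could be followed through distal sites only. The table used here holds no site within 1000 bases of the DUSP6 start, whose upstream sequence is printed above, so this promoter was not analysed here. Of 15842 protein-coding genes with a start in the RefSeq table, 75% had such a site. Of the 22 distal DUSP6 sites, 7 were higher and 4 lower at 6 h, and 8 were higher and 5 lower at 72 h. These shares of 31.8% and 18.2% at 6 h and 36.4% and 22.7% at 72 h were near those of all distal sites. The latter were 25.1% and 14.3%, then 41.5% and 24.3%. The strongest, 38.7 kb upstream (chr12:89390605-89391872), read 11.8 and 9.47 CPM untreated, 59.3 and 59 after 6 h, and 31 and 33.1 after 72 h. The groups were separate, 6 h being the highest and 72 h between it and the untreated libraries.

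This DUSP6 site thus had log2 fold changes of 2.48 (SE 0.16, adjusted p = 3.2e-10) and 1.60 (SE 0.16, adjusted p = 2.5e-08). The decrease of 0.88 between 6 and 72 h was called (adjusted p = 8.1e-05) but turned to 0.01 with loess offsets. On the downstream side, a site 42.9 kb from the start rose from 0.65 and 1 CPM to 3.41 and 3.2 after 6 h and 7.38 and 7.91 after 72 h. It was the opposite in timing, with the 72 h libraries above the 6 h ones and log2 fold changes of 1.95 (SE 0.34) and 3.17 (SE 0.31).

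DUSP10, which prefers p38 and JNK over ERK, had the promoter site with the most CPM per kb of the 16, and it lost accessibility at both times. The site (chr1:221741817-221743332) read 137 and 139 CPM untreated, 86.6 and 92.1 after 6 h, and 44 and 54.7 after 72 h. The groups did not overlap and each later one was lower. In log2 terms the change came to −0.63 (SE 0.13, adjusted p = 0.00066) and −1.48 (SE 0.13, adjusted p = 6.1e-09). With loess offsets they were −0.04 and 0.35, so the call at 6 h was lost and the direction at 72 h turned.

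Its distal sites were evenly divided at 6 h, with 4 of 22 higher and 4 lower, and at 72 h 7 were higher and 6 lower. That is 18.2% each at 6 h and 31.8% and 27.3% at 72 h. Of all distal sites, 25.1% and 14.3% were called at 6 h and 41.5% and 24.3% at 72 h. Inside the gene, 2.88 kb from the start, a site rose from 3.51 and 3.3 CPM to 14.5 and 18.5 at 6 h and stood at 7.92 and 8.52 at 72 h. All treated libraries were above the untreated ones, with log2 fold changes of 2.29 (SE 0.23, adjusted p = 8.4e-08) and 1.27 (SE 0.23, adjusted p = 5e-05). At another position in the gene body, 16.8 kb from the start, reads were few (4 and 17 at 0 h), and CPM rose from 0.26 and 0.813 to 1.45 and 2.28 after 6 h and 3.86 and 3.7 after 72 h. Its log2 fold change was 1.77 at 6 h (adjusted p = 0.0034, lost without 6 h replicate 2) and 2.73 at 72 h (adjusted p = 6.9e-06). The strongest distal DUSP10 site, 18.7 kb inside the gene, had no call with TMM, with 15.7 to 26.6 CPM over the 6 libraries. Its 72 h value of −0.28 was called as a decrease with RLE factors (−0.46, adjusted p = 0.041) and turned to a called increase with loess offsets (0.43) and shared-site factors (0.69).

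**Figure D3:**
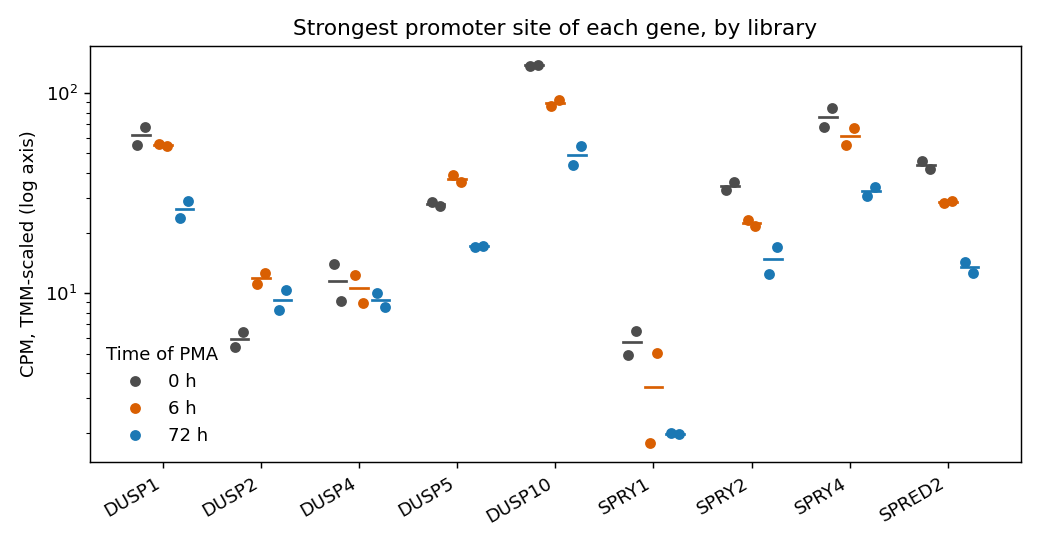
CPM on a log axis of the strongest promoter site of each gene at its start, with 1 point per library, a bar at the mean of the 2 libraries of a time point, and time in colour; DUSP6 has no promoter site in the table. With TMM scaling the 72 h points lie below the 0 h points for DUSP1, DUSP5, DUSP10, SPRY1, SPRY2, SPRY4 and SPRED2 and above them for DUSP2, while the values of DUSP1, DUSP5, DUSP10 and SPRY4 at 72 h turn above 0 h with loess offsets, and that of DUSP5 also with shared-site factors.

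Among the Sprouty genes, whose products are recruited to the membrane and inhibit signalling from receptors to RAS and RAF, SPRY4 gained at distal sites early. Of its 19 distal sites, 12 were higher and 1 lower at 6 h, and 10 were higher and 3 lower at 72 h. The shares of all distal sites were 25.1% and 14.3% at 6 h and 41.5% and 24.3% at 72 h. The largest change was 31.3 kb downstream of the start (chr5:142293338-142294147), with 1.3 and 1.24 CPM untreated, 21.6 and 23.3 after 6 h, and 12.1 and 19.3 after 72 h. The untreated libraries held 20 and 26 reads and lay far below all treated ones. The fit gave log2 fold changes of 4.14 (SE 0.27, adjusted p = 3e-10) and 3.63 (SE 0.27, adjusted p = 6.9e-10).

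The SPRY4 promoter site (chr5:142324622-142326727) read 67.7 and 84.8 CPM untreated, 55.3 and 66.8 after 6 h, and 30.7 and 34 after 72 h. Its 6 h libraries lay just below the untreated ones without a call (−0.32, SE 0.15, adjusted p = 0.095). At 72 h both libraries were clearly lower (−1.24, SE 0.15, adjusted p = 3.3e-07), a direction that turned to 0.26 with loess offsets and a call lost with shared-site factors (−0.27, adjusted p = 0.088). The strongest distal SPRY4 site, 32.1 kb upstream, went from 34.3 and 35.6 CPM to 48.5 and 46.3 after 6 h and 21.8 and 19.6 after 72 h. This site was called in opposite directions at the 2 times, 0.44 (SE 0.15, adjusted p = 0.022) and −0.76 (SE 0.15, adjusted p = 0.00012). The 6 h call held without 0 h replicate 2 but not without any other library (0.35 to 0.42), and the 72 h value turned to 0.37 with loess offsets and 0.21 with shared-site factors.

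SPRY2 went the other way at 6 h. None of its 6 distal sites was higher at 6 h and 3 were lower, while at 72 h 3 were higher and 2 lower. The shares of all distal sites were 25.1% higher and 14.3% lower at 6 h and 41.5% and 24.3% at 72 h. The site 20.9 kb upstream (chr13:80361711-80362418) read 6.69 and 6.36 CPM untreated, 3.07 and 2.59 after 6 h, and 5.9 and 6.84 after 72 h. The 6 h libraries lay below all others and the 72 h libraries overlapped the untreated ones. The fit gave log2 fold changes of −1.23 (SE 0.26, adjusted p = 0.00074) at 6 h and −0.03 (SE 0.23, adjusted p = 0.91) at 72 h, and the rise of 1.19 from 6 to 72 h was called (adjusted p = 0.0007). With shared-site factors the value at 72 h against 0 h turned to a called 0.93 (adjusted p = 0.0013). A site 14.3 kb downstream of the start was low at 0 h and 6 h, at 0.335 to 1.14 CPM, and reached 3.81 and 4.08 CPM at 72 h (2.53, SE 0.44, adjusted p = 3.1e-05).

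At the outermost SPRY2 start (chr13:80340786-80341768), whose sequence is printed above, CPM was 32.8 and 35.9 untreated, 23.3 and 21.6 after 6 h, and 12.5 and 17.1 after 72 h. Each later group was lower than the one before, with log2 fold changes of −0.62 (SE 0.17, adjusted p = 0.0071) and −1.21 (SE 0.17, adjusted p = 2.9e-06). With shared-site factors neither was called (−0.32, adjusted p = 0.14, and −0.24, adjusted p = 0.19). A weaker promoter site 2.06 kb into the gene rose at 6 h from 5.78 and 5.45 to 10.3 and 8.26 CPM (0.71, adjusted p = 0.022) and stood at 4.3 and 5.22 CPM at 72 h. That rise was not called when any library except 6 h replicate 2 was left out (0.56 to 0.69, adjusted p of 0.058 to 0.12). Its 72 h value of −0.24 had no call, and turned to a called 0.73 with shared-site factors (adjusted p = 0.0094). The strongest distal SPRY2 site, 1.87 kb upstream, fell by 0.77 at 6 h and by 1.14 at 72 h. Its 6 h call was lost without 0 h replicate 2 (−0.45, adjusted p = 0.2) or 6 h replicate 1 (−0.70, adjusted p = 0.056). With shared-site factors neither of its calls held (−0.47, adjusted p = 0.11, and −0.17, adjusted p = 0.51).

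SPRY1 had the promoter sites with the fewest CPM per kb. The site at its outermost start (chr4:123396511-123397114) read 3.57 and 4.16 CPM untreated, 1.02 and 2.4 after 6 h, and 1.97 and 2.01 after 72 h, and the lowest value rested on 12 reads. All treated libraries lay below the untreated ones, with log2 fold changes of −1.05 (SE 0.35, adjusted p = 0.019) and −0.96 (SE 0.33, adjusted p = 0.013). The 6 h call was lost without 0 h replicate 2 (−0.93) or 6 h replicate 1 (−0.69), and the 72 h call without 0 h replicate 2 or either 72 h library, and the 72 h value was 0.0046 with shared-site factors. At the next start, 1.63 kb on, CPM was 4.94 and 6.5 untreated, 1.79 and 5.03 after 6 h, and 1.99 and 1.98 after 72 h. There the 6 h libraries disagreed, the shallow one being as low as the 72 h libraries, and the 72 h value of −1.53 was called (SE 0.33, adjusted p = 0.00038), though not with shared-site factors (−0.56, adjusted p = 0.14). The difference between 72 and 6 h (−0.89, adjusted p = 0.039) turned to 0.20 without 6 h replicate 2. The third SPRY1 promoter site held 7 to 26 reads per library and showed no call.

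Of the 12 distal SPRY1 sites, 2 were higher and 2 lower at 6 h, 3 higher and 2 lower at 72 h. That is 16.7% each at 6 h and 25% and 16.7% at 72 h. Of all distal sites, 25.1% and 14.3% were called at 6 h and 41.5% and 24.3% at 72 h. The largest change lay 56.4 kb downstream of the start, where CPM rose from 1.56 and 0.956 to 5.12 and 4.9 after 6 h and 8.54 and 9.65 after 72 h. The groups were separate and each later one higher, with log2 fold changes of 2.02 (SE 0.31, adjusted p = 1.9e-05) and 2.88 (SE 0.29, adjusted p = 2.7e-08). The strongest, 46.9 kb upstream, had 20.8 to 30.4 CPM and a 72 h value of −0.40 (adjusted p = 0.029). That call was lost without either 0 h library or 72 h replicate 1, and the value turned to 0.10 with total counts, 0.55 with loess offsets and 0.57 with shared-site factors.

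SPRED2 is a Sprouty-related inhibitor that binds neurofibromin and restrains RAS. With TMM scaling, the site at its outermost start fell, and a site near its inner start rose. At the outermost start (chr2:65432252-65433007) CPM was 45.9 and 42 untreated, 28.4 and 28.9 after 6 h, and 14.3 and 12.7 after 72 h, with log2 fold changes of −0.62 (SE 0.15, adjusted p = 0.0029) and −1.70 (SE 0.16, adjusted p = 7.4e-09). The 3 groups were separate and fell in order of time. The rising site, 64.9 kb into the gene (chr2:65367372-65368013), lies near the inner start but outside the sequence printed above. There CPM was 2.34 and 2.01 untreated, 8.78 and 10.4 after 6 h, and 5.93 and 7.46 after 72 h. These groups rose, with log2 fold changes of 2.16 (SE 0.27, adjusted p = 1.3e-06) and 1.63 (SE 0.26, adjusted p = 1.3e-05).

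The other SPRED2 site at the inner start, 65.9 kb into the gene and overlapping the sequence printed above, read 7.99 and 9.18 CPM untreated, 11.4 and 14 after 6 h, and 5.9 and 6.77 after 72 h. Its 6 h libraries were the highest, with a log2 fold change of 0.57 (SE 0.22, adjusted p = 0.038). That call was lost without 0 h replicate 1 (0.42), 6 h replicate 2 (0.35) or either 72 h library (0.52 in both). Its 72 h value of −0.44 (adjusted p = 0.074) was called with RLE factors (−0.62) and turned to a called 0.53 with shared-site factors. At the outer start, the 6 h decrease was not called with shared-site factors (−0.32, adjusted p = 0.099). The decrease there between 6 and 72 h (−1.09, adjusted p = 1.2e-05) was not called with loess offsets (−0.30, adjusted p = 0.12).

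Of the 28 distal SPRED2 sites, 14 were higher and 2 lower at 6 h, and 11 higher and 6 lower at 72 h. The shares of all distal sites were 25.1% and 14.3% at 6 h and 41.5% and 24.3% at 72 h. Neighbouring sites upstream of the gene differed in timing. The site 23.6 kb upstream (chr2:65455879-65456595) rose from 0.585 and 0.956 CPM to 10.1 and 12.7 at 6 h and held 8.75 and 9.06 at 72 h, with log2 fold changes of 3.85 (SE 0.30) and 3.48 (SE 0.30). The site 26.6 kb upstream (chr2:65458885-65459559) was at 0.65 and 0.622 CPM untreated, 1.45 and 2.28 after 6 h, and 10.4 and 10.6 after 72 h. Most of its rise came after 6 h, with a difference of 2.41 between 72 and 6 h (SE 0.27, adjusted p = 1e-06) and 4.04 in all (SE 0.33, adjusted p = 1.6e-09). Its 6 h call (1.63, adjusted p = 0.0015) was lost without 6 h replicate 2 (1.13, adjusted p = 0.096). The strongest distal site, 3.73 kb upstream, read 61.6 and 60.9 CPM at 0 h, 51.1 and 53.6 at 6 h, and 22.3 in both 72 h libraries (−1.46, SE 0.14, adjusted p = 1.5e-08). With loess offsets that decrease was −0.13 and not called (adjusted p = 0.37).

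Counts summed over the distal sites of each gene gave 1 value per gene and library, fitted with the sums of 19104 genes. At 6 h, 7 of the 10 genes were higher (DUSP1, DUSP2, DUSP4, DUSP5, DUSP6, SPRY4 and SPRED2) and 1 was lower (SPRY2), beside 28.8% higher and 24% lower of all genes. At 72 h against 0 h, 4 were higher (DUSP2, DUSP4, DUSP5 and SPRY4) and none lower, beside 32.5% and 39.9%. Between 6 and 72 h, SPRY2 rose and DUSP1, DUSP6, SPRY4 and SPRED2 fell, beside 22.3% and 37.6% of all genes. Windows of neighbouring genes can share sites, so a sum is a value of the region.

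The early gain was held at DUSP5, where the sum went from 44.98 and 41.5 CPM to 141.1 and 135.9 after 6 h and 125.9 and 138 after 72 h. Both treated groups were far above the untreated one and overlapped each other, with log2 fold changes of 1.68 (SE 0.11, adjusted p = 2.4e-10) and 1.61 (SE 0.11, adjusted p = 6.2e-11). DUSP2 took the same course, from 47.97 and 54.55 CPM to 89.54 and 96.83 and then 80.53 and 88.38, with log2 fold changes of 0.86 (SE 0.11) and 0.72 (SE 0.11). With TMM scaling the gain in the DUSP1 sum was passing. Of its 16 distal sites, 6 (37.5%) were still called higher at 72 h than at 0 h, beside 41.5% of all distal sites. Its sum was 164.2 and 153.2 CPM untreated, 231 and 259.1 after 6 h, and 132.6 and 148 after 72 h. The 6 h libraries stood above all others and the 72 h libraries below the untreated ones.

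For the DUSP1 sum the log2 fold change was 0.63 (SE 0.12, adjusted p = 0.00012) at 6 h, −0.18 (SE 0.12, adjusted p = 0.17) at 72 h and −0.81 (SE 0.12, adjusted p = 6.5e-06) between them. The 72 h value turned to 0.32 with total counts, 0.24 with loess offsets and 0.79 with shared-site factors, and the last difference was −0.13 and not called with shared-site factors (adjusted p = 0.25). DUSP6 read 108.6 and 99.68 CPM untreated, 162.9 and 151.2 after 6 h, and 117.3 and 114.3 after 72 h. Its 6 h libraries were the highest (0.59, SE 0.11, adjusted p = 0.00011), and the decrease from 6 to 72 h (−0.44, SE 0.11, adjusted p = 0.0014) turned to 0.23 with shared-site factors.

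SPRED2 was likewise highest at 6 h, with 197.4 and 204.3 CPM untreated, 272.5 and 322.3 after 6 h, and 202 and 220.4 after 72 h. The 6 h gain was 0.57 (SE 0.12, adjusted p = 0.00054), and the decrease of 0.50 that followed turned to a rise of 0.18 with shared-site factors. SPRY4 lay between the held and the passing course, with 96.26 and 92.56 CPM, then 171.2 and 180.8, then 131 and 144.2. Its groups did not overlap, with log2 fold changes of 0.90 (SE 0.11, adjusted p = 8.1e-07) and 0.54 (SE 0.11, adjusted p = 0.00012). Its decrease after 6 h (−0.36, adjusted p = 0.0071) was not called without 72 h replicate 1 (−0.29, adjusted p = 0.13) and turned to 0.01 with total counts, 0.02 with loess offsets and 0.32 with shared-site factors.

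The SPRY2 sum had the reverse shape, with 24.18 and 28.54 CPM untreated, 13.73 and 16.2 after 6 h, and 22.88 and 23.2 after 72 h. The 6 h libraries were the lowest and the 72 h ones just below the untreated ones with TMM scaling (above them by 0.30 with total counts and 0.77 with shared-site factors). The log2 fold change was −0.80 (SE 0.15, adjusted p = 0.00011) at 6 h and 0.61 (SE 0.14, adjusted p = 0.0011) from 6 to 72 h, and neither of these 2 directions turned under the alternatives run. DUSP4 rose to 60.89 and 61.24 CPM at 72 h from 38.48 and 41.35 at 0 h (0.61, SE 0.12, adjusted p = 0.00011). Its 6 h libraries, at 45.2 and 56.77 CPM, lay between (0.36, adjusted p = 0.018), a call lost without 0 h replicate 1 (0.31, adjusted p = 0.059), without 6 h replicate 2 (0.18, adjusted p = 0.32) and with RLE factors (0.21, adjusted p = 0.17). DUSP10 and SPRY1 showed no call in any contrast with TMM, at 104.8 to 131.9 and 52.45 to 68.93 CPM over the 6 libraries. The DUSP10 value at 72 h against 0 h, −0.23 (adjusted p = 0.066), was called as a decrease with RLE factors (−0.42, adjusted p = 0.0036) or without 0 h replicate 2 or either 6 h library. It turned to a called increase with total counts (0.27, adjusted p = 0.026), shared-site factors (0.73, adjusted p = 3.5e-06) and windows of 100000 bases (0.54, adjusted p = 3.1e-05). That of SPRY1, 0.24 (adjusted p = 0.058), was called as an increase with total counts (0.74), loess offsets (0.38), shared-site factors (1.21), DESeq2 (0.33) and windows of 100000 bases (0.69).

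**Figure D4:**
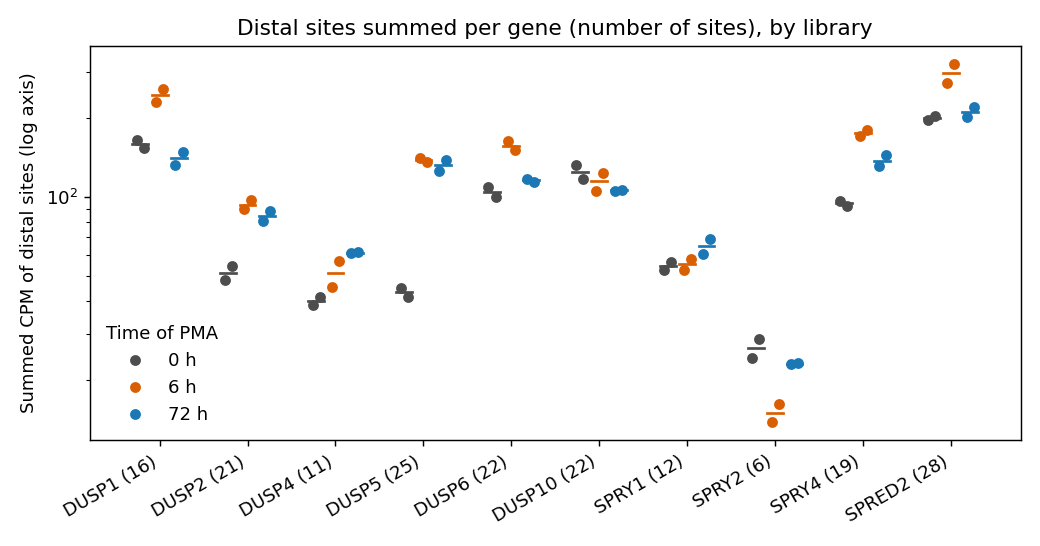
Summed CPM of the distal sites of each gene on a log axis, with the number of sites in brackets, 1 point per library, a bar at the mean of the 2 libraries and time in colour. At 6 h the points of DUSP1, DUSP2, DUSP4, DUSP5, DUSP6, SPRY4 and SPRED2 lie above those at 0 h and those of SPRY2 below; at 72 h DUSP5 stays at 125.9 and 138 CPM while DUSP1 is back below its untreated level with TMM scaling (above it with total counts, loess offsets or shared-site factors).

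Other genes of the pathway were counted in the same way, with TMM scaling unless another is named. The shares over all genes, for reading the counts of distal sums, are again 28.8% higher and 24% lower at 6 h and 32.5% and 39.9% at 72 h. Among 8 further feedback genes (DUSP3, DUSP7, DUSP8, DUSP9, DUSP14, DUSP16, SPRED1 and SPRED3), the distal sums of DUSP14 and DUSP16 were higher at 6 h and those of SPRED1 and SPRED3 lower, and at 72 h 3 were higher and 3 lower. The JNK and p38 phosphatase DUSP16 rose by 1.13 (SE 0.12, adjusted p = 1.6e-07). The DUSP14 call (0.32, adjusted p = 0.046) was lost without any library except 6 h replicate 1 and with RLE factors (0.17). With shared-site factors neither SPRED1 (−0.12) nor SPRED3 (−0.13) was called. Under those factors 5 of the 8 were higher and none lower at 6 h, beside 48.8% and 8.75% of all genes.

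Of 24 genes of the cascade from RAS activators to ERK, 10 (41.7%) were higher and 7 (29.2%) lower at 6 h, and 6 (25%) were higher and 10 (41.7%) lower at 72 h. The 72 h counts turned to 14 higher and 2 lower with total counts, beside 55.7% and 18% of all genes. With shared-site factors they were 21 and 1, beside 78% and 4.7% of all genes. RASGRP3, an exchange factor regulated by diacylglycerol and phorbol esters, rose by 0.50 (SE 0.12) at 6 h and 1.39 (SE 0.12, adjusted p = 1.5e-09) at 72 h, and both calls held under the alternatives run. Of 12 transcriptional targets of ERK, 5 (41.7%) were higher and none lower at 6 h (EGR1, IER3, ETV5, PHLDA1 and MCL1), and 2 (16.7%) were higher and 6 (50%) lower at 72 h. The latter turned to 6 and 2 with total counts, 5 and 3 with loess offsets, and 11 and none with shared-site factors. Of all genes, 55.7% were higher and 18% lower with total counts, 35.8% and 36.8% with loess offsets, and 78% and 4.7% with shared-site factors. PHLDA1 had log2 fold changes of 2.41 (SE 0.12) and 1.33 (SE 0.12). EGR1, the immediate-early zinc finger factor, had 0.86 (SE 0.11) and −0.67 (SE 0.11), and the latter was not called with total counts (−0.17, adjusted p = 0.13) and turned to a called 0.30 with shared-site factors (adjusted p = 0.013).

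At promoter sites, the shares over all genes are 8.24% higher and 38.2% lower at 6 h and 9.7% and 73% at 72 h. The 8 further feedback genes had none higher and 4 lower (36.4%) of 11 at 6 h and 1 higher and 10 lower (90.9%) at 72 h. The cascade had 5 higher (14.7%) and 15 lower (44.1%) of 34 at 6 h and 4 higher (11.8%) and 26 lower (76.5%) at 72 h. The targets had 4 higher and 4 lower (21.1% each) of 19 at 6 h and 2 higher (10.5%) and 12 lower (63.2%) at 72 h, the latter 6 and 4 with loess offsets and 7 and 3 with shared-site factors. With shared-site factors the lower sites at 72 h were 3 of the further feedback genes and 16 of the cascade. At 72 h the shares over all promoter sites were 10.8% higher and 53.3% lower with loess offsets and 20.9% and 36.6% with shared-site factors. The median log2 fold change of the distal sums at 6 h was 0.58 over the 10 genes described here, 0.03 over the further feedback genes, 0.25 over the cascade and 0.18 over the targets, beside 0.01 over all genes.

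Over the 6 libraries, the distal sums that ran most like that of DUSP5 were those of SUCO (Pearson r = 0.9995), SYNE3 (0.9994) and KRR1 (0.9988), and 146 genes reached 0.99. For DUSP1 the nearest were MAGEB1, MAGEB3 and MAGEB4 (0.9967 each), and 29 genes reached 0.99. Genes with the same value may share distal sites, so they need not be separate regions. For SPRY2 they were METTL2A (0.9948), DET1 (0.9909) and COG4 (0.9903), and 4 genes reached it. The 6 points fall into 3 time groups, so such values describe the shape over time and are common.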

How the data were processed

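Open chromatin was profiled by ATAC-seq in 6 K562 libraries, 2 per time point, grouped by their titles. The authors' deposited table lists 181135 sites and, for each library, a count of reads; per the values these counts are whole and not normalized. The submitters' processing notes name the build hg38 and the tools Trim Galore 0.4.3, BWA 0.7.17, SAMtools 1.9, deepTools 3.0.1, MACS2, bedtools 2.26 and DESeq, with no role or order, and how the sites were chosen or read ends shifted is not given in the sources used here. The deposited table also holds the authors' log2 fold changes and adjusted p-values, whose class names are mentioned only in the closing section. The authors' peak lists, called per library as the separate files show, were used for whether a peak overlaps a site, and their deposited score, signal fold enrichment and −log10 p and q columns were not used.

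Counts were fitted with edgeR 4.0.16 (R 4.3.3), quasi-likelihood, TMM factors, the default filter on low counts with a minimum count of 10 (177759 sites kept, 3376 removed), all 6 libraries in 1 fit of the 3 times, no covariates, and Benjamini-Hochberg adjustment over all sites. The common biological coefficient of variation was 0.166. Distal counts were summed per protein-coding gene window and fitted the same way over 19104 genes. Starts came from the RefSeq promoter table of GRCh38.p14, which holds 8 of the 10 genes and 15842 of the 20037 protein-coding genes. For every other gene, DUSP4 and DUSP5 among them, either gene end was used as a start. The shares over all promoter sites can therefore include sites at 3' ends, which are left out of the distal class. For DUSP4 and DUSP5 the strand for distances is general knowledge. Table starts count from 0 and were raised by 1.

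The genes, lists and tests were chosen with earlier results of these data known. Sites were named by rule: every promoter site, the distal site with the highest mean CPM, and the distal site of largest called change at 6 h and at 72 h with a mean of at least 1 CPM and no overlap between the libraries compared. Other sites named were chosen after their values were seen. In data simulated from these libraries, the fit of 6 h against 0 h recovered 19 of 100 sites changed by 1 and 74 of 100 changed by 2 on the log2 scale, over 173112 sites, and 93 and 98 of 100 distal sums over 19088 genes, with 5.1% and 6.37% of calls false. The fit of 72 h against 0 h recovered 13 and 76 of 100 sites and 96 and 99 of 100 sums, with 5.32% and 10.6% false. Only these 100 features of each size were changed in the simulation. In the data, 25.1% of all distal sites were called higher and 14.3% lower at 6 h. With so few true changes the adjusted threshold is harder to reach, so the simulated rates do not carry over to the data. Within a time point the libraries differed beyond counting noise (chi-square over its degrees of freedom 4.67, 4.32 and 3.50 at 0, 6 and 72 h).

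Alternatives were RLE factors, total counts, loess offsets, TMM factors from shared sites, no filter, a replicate block, leaving out each library, only the 2 groups compared, DESeq2 1.42.0, a stricter threshold, windows of 25000 and 100000 bases and promoter reaches of 500 and 2000 bases.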

Additional observations from a re-analysis of the deposited data

Results flagged for a closer look

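The values below are differences between 72 h and 6 h, each from edgeR's fit, where the change at the later time differed from the early one. In the distal sums this difference was −0.81 for DUSP1, −0.44 for DUSP6, −0.50 for SPRED2, −0.36 for SPRY4 and 0.61 for SPRY2 on the log2 scale. DUSP1, DUSP6, SPRED2 and SPRY4 had risen at 6 h and SPRY2 had fallen, so all 5 moved back towards 0 h. Of the distal sums of all genes, 22.3% were called higher and 37.6% lower between 6 and 72 h. The decreases of DUSP6, SPRED2 and SPRY4 turned to rises of 0.23, 0.18 and 0.32 with TMM factors from shared sites.

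At 3 sites the calls at 6 h and 72 h against 0 h were opposite in direction. The DUSP5 promoter site differed by −1.12 and the strongest distal SPRY4 site by −1.20 between 72 and 6 h, both after a rise at 6 h that did not hold without most of the single libraries. A site 34.7 kb upstream of DUSP10, chosen after its values were seen, read 4.61 and 5.16 CPM untreated, 2.56 and 2.85 after 6 h, and 7.07 and 7.24 after 72 h. Its difference between 72 and 6 h was 1.39 (SE 0.25, adjusted p = 0.00015), with log2 fold changes against 0 h of −0.84 (adjusted p = 0.014) and 0.55 (adjusted p = 0.047). The 72 h call was lost without any of the 0 h or 72 h libraries, with RLE factors (0.36, adjusted p = 0.19) and with loess offsets (0.091, adjusted p = 0.74). The 6 h call was lost without 0 h replicate 2 (−0.75, adjusted p = 0.069), without 6 h replicate 1 (−0.78, adjusted p = 0.051) and with shared-site factors (−0.54, adjusted p = 0.1).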

How the results depend on the processing

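No call at 6 h in the distal sums changed direction under any alternative, and the gains at 72 h of DUSP2, DUSP4, DUSP5 and SPRY4 kept theirs. Most reversals concern 72 h and the scaling. With TMM factors from shared sites (those having a peak in each library), distal sums turned for 72 h against 0 h at DUSP1 (0.79), DUSP10 (0.73) and SPRY2 (0.77), and for 72 h against 6 h at DUSP10 (0.55), DUSP2 (0.53), DUSP5 (0.60), DUSP6 (0.23), SPRED2 (0.18) and SPRY4 (0.32). Promoter sites turned under those factors for 72 h against 0 h at DUSP4 (0.66), DUSP5 (0.26), SPRED2 (0.53), SPRY1 (0.0046) and the inner SPRY2 start (0.73), and for 72 h against 6 h at the outer SPRY2 start (0.075). Named distal sites turned for 72 h against 0 h at DUSP10 (0.69), DUSP2 (0.84), DUSP4 (0.83), SPRY1 (0.57), SPRY2 (0.93) and SPRY4 (0.21), and for 72 h against 6 h at DUSP4 (0.54), SPRY1 (0.37) and SPRY4 (0.15). With loess offsets the distal sums of DUSP1 (0.24, against 0 h), DUSP10 (0.23), DUSP5 (0.26) and SPRY4 (0.025, all against 6 h) turned. So did the promoter sites of DUSP1 (0.14), DUSP10 (0.35), DUSP5 (0.24) and SPRY4 (0.26) for 72 h against 0 h and of DUSP10 (0.39), SPRY2 (0.11) and SPRY4 (0.15) for 72 h against 6 h. Distal sites turned with loess offsets at DUSP10 (0.43), SPRY1 (0.55) and SPRY4 (0.37) against 0 h, and at SPRY1 (0.48) and DUSP6 (0.0063) against 6 h. With total counts the sums of DUSP1 (0.32), DUSP10 (0.27) and SPRY2 (0.30) against 0 h, those of DUSP10 (0.25), DUSP5 (0.29) and SPRY4 (0.0079) against 6 h and the distal SPRY1 site (0.10) turned. In windows reaching 100000 bases the DUSP10 sum was 0.54 against 0 h and 0.50 against 6 h. Without 6 h replicate 2 the SPRY1 site at the next start turned to 0.20 for 72 h against 6 h, and without 6 h replicate 1 it was −1.34. The courses, the pathway list counts and the pathway genes were put through the alternatives after seeing the data. Among the pathway genes named, shared-site factors turned the distal sums of EGR1 (0.30) and MCL1 (0.23) against 0 h and of DUSP14 (0.57), DUSP16 (0.12) and IER3 (0.46) against 6 h, and windows reaching 25000 bases turned SPRED1 (−1.16 against 0 h and −0.56 against 6 h). The cause of these turns was not tested.

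Counts of sites moved too. With the scaling the shares over all sites moved as well, so the counts that follow are no result about the 10 genes. At 6 h the promoter sites higher were 3 with RLE factors and 3 with DESeq2, in place of 6, and promoter sites lower were 1 with shared-site factors, in place of 4. Distal sites lower at 6 h were 13 with shared-site factors, 34 with loess offsets and 11 in windows reaching 25000 bases, in place of 20, and distal sites higher were 135 in windows of 100000 bases, in place of 74. At 72 h against 0 h, the promoter sites were 6 higher and 2 lower with shared-site factors, and 1 higher at a promoter reach of 500 bases, in place of 3 and 9. Distal sites there were 133 higher and 8 lower with shared-site factors, 17 lower with total counts, 173 higher in windows of 100000 bases, and 54 higher and 23 lower in windows of 25000 bases, in place of 83 and 35. Distal sums called were 7 with RLE factors, 10 with shared-site factors, 9 with loess offsets, 10 with total counts and 7 in windows of 100000 bases, in place of 4. For 72 h against 6 h, the distal sites were 81 higher and 6 lower with shared-site factors, 24 higher with DESeq2, 24 lower with loess offsets, 19 lower with total counts, 87 higher in windows of 100000 bases and 17 higher in windows of 25000 bases, in place of 38 and 37. Promoter sites lower were 4 with shared-site factors and 3 with loess offsets, in place of 11, and 1 was higher with loess offsets and at a reach of 2000 bases, in place of 0. Distal sums called for 72 h against 6 h were 8 with shared-site factors, in place of 5. At an adjusted p under 0.01 with a log2 fold change beyond 1, counts fell by construction: at 6 h to 1 distal sum, 11 distal sites lower, and 3 promoter sites higher and 0 lower, at 72 h against 0 h to 1 sum and 15 distal sites lower, and for 72 h against 6 h to 0 sums, 22 distal sites higher, 12 lower and 6 promoter sites lower.

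Leaving out each library in turn, promoter sites at 6 h ranged over 3 to 4 higher and 3 to 6 lower, and distal sites over 46 to 70 higher and 16 to 20 lower. At 72 h against 0 h they ranged over 2 to 3, 8 to 9, 73 to 84 and 23 to 35, and for 72 h against 6 h over 0 to 0, 8 to 12, 23 to 43 and 22 to 44 in the same order. The lowest distal counts came without 6 h replicate 2 (46) or 72 h replicate 2 (23 lower against 0 h, and 23 higher and 22 lower against 6 h), and 24 were lower against 6 h without 72 h replicate 1. Distal sums called ranged over 7 to 8, 4 to 5 and 4 to 6. Where 1 library was left in a group, it was assumed to vary like the other groups. Deviations of libraries with the same replicate number correlated by 0.08, 0.05 and 0.09 over single sites. Counting noise lowers such values, so they do not settle whether the numbers pair the samples. With the replicate number as a block, distal sites at 6 h stayed at 74 higher and 20 lower, and distal sums called at 72 h were 6 in place of 4. Over all genes, the distal sums called at 6 h were then 31.6% higher and 27.7% lower, in place of 28.8% and 24%. In the simulation, where few sites were changed, most changes of 1 on the log2 scale were missed at single sites. How often such changes are missed in the data, with 2 libraries per group, was not tested.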

Other observations

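In the authors' deposited table, 45 of the sites described here carry a class name. Of the 13 in the class downEarly, 10 have a log2 fold change above 0 at 6 h in that table, as do 22 of 26 in upLate, 4 of 4 in upEarly and 2 of 2 in downLate. What the class names stand for is not given in the sources used here, and they were not used.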
